A study of Homo sapiens with 4 samples.

Results

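The cytosolic ribosomal protein genes described here are 60 autosomal genes that encode proteins of the large and the small subunit of the cytosolic ribosome. They were chosen by a fixed list of Ensembl identifiers, and every peak listed under one of these identifiers was taken from each of 4 peak lists. The lists name 17764 genes, and all 60 were among them. The files do not pair identifiers with gene symbols, so single genes are given by identifier and by hg19 position, and genes of the large and the small subunit were not told apart.

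The study mapped RNA bound by ZFR, a zinc finger RNA-binding protein, with enhanced crosslinking and immunoprecipitation (eCLIP), which recovers RNA fragments joined to a chosen protein by ultraviolet light. Cells of Flp-In T-REx-293 were used, an established line derived from human embryonic kidney. All libraries came from polyclonal cells that carry FLAG-ZFR stably integrated at the FRT site and that received 1 μg/mL doxycycline for 48 to 72 h to induce the transgene, before crosslinking at 400 mJ/cm2. There were 2 eCLIP libraries and 2 size-matched inputs, which are libraries of crosslinked RNA made without the immunoprecipitation, each numbered 1 and 2. The tagged protein was induced from a transgene, so the libraries do not measure ZFR at its natural level, and no library of cells without the transgene was used here. The labels do not say that libraries 1 and 2 came from separate cultures, and p-values that compare the groups therefore reflect only how far these libraries differ among themselves, which may be technical. The markers of the cell line and the level of ZFR itself were not checked, since no name is paired with an identifier.

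Ribosomal proteins join with ribosomal RNA to form the particle that translates mRNA. Their mRNAs are among the most abundant of a growing cell, and most of their genes are short. In mammals their introns often host small nucleolar RNAs. Abundant mRNA can be found in an input as well as in an immunoprecipitate, and the input serves to measure that background.

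The ribosomal protein genes held a smaller share of the peaks in both eCLIP libraries than in either input. The genes had 905 of 479308 peaks in eCLIP 1, 178 of 41904 in eCLIP 2, 336 of 63068 in input 1 and 199 of 11204 in input 2. Per 10000 peaks of the library these are 18.9 in eCLIP 1 (Wilson 95% interval 17.7 to 20.2), 42.5 in eCLIP 2 (36.7 to 49.2), 53.3 in input 1 (47.9 to 59.3) and 178 in input 2 (155 to 204). The intervals cover counting error only. The geometric mean was 3.43-fold higher in the inputs, a log2 difference of -1.78 for eCLIP minus input, and the SD of the log2 shares within groups was 1.05 (n = 2 in each group). Leaving out input 2 brought the log2 difference to -0.91 and leaving out input 1 to -2.65, and without eCLIP 1 or eCLIP 2 it was -1.20 or -2.37. The groups did not overlap, but eCLIP 2 and input 1 lay close together, and their intervals overlapped. With 2 libraries against 2, a two-sided exact permutation test cannot go below p = 0.33, so no p is given for these shares.

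Each peak's name ends in a whole number, which was taken for the peak's reads although no file says what it counts. By that measure the genes held 15415 of 3075352 reads in peaks in eCLIP 1, 872 of 229647 in eCLIP 2, 1742 of 249245 in input 1 and 1608 of 102084 in input 2. Per 10000 reads in peaks the shares were 50.1 in eCLIP 1, 38.0 in eCLIP 2, 69.9 in input 1 and 158 in input 2. Both eCLIP shares again lay below both input shares, with a 2.41-fold higher geometric mean in the inputs (log2 difference -1.27, SD within groups 0.62; -0.68 without input 2 and -1.85 without input 1). A lower share can arise from fewer peaks in these genes or from more peaks in others, and shares alone cannot tell these apart.

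The length of the lists differed widely, and the longest list had the lowest share of peaks and the shortest the highest. Between these, eCLIP 2 had a shorter list than input 1 (41904 against 63068 peaks) but a lower share of peaks (42.5 against 53.3 per 10000). By reads the lowest share was that of eCLIP 2 (38.0) and not that of the longest list, eCLIP 1 (50.1). When each list was reduced to the 11204 peaks with the lowest p-values, the length of the shortest list, the ribosomal protein genes had 250 peaks in eCLIP 1, 43 in eCLIP 2, 124 in input 1 and 199 in input 2. These are 223, 38.4, 111 and 178 per 10000 peaks, so that eCLIP 1 was the highest library and eCLIP 2 the lowest, and the groups overlapped. The log2 difference was then -0.60. The shares of reads overlapped as well, at 144 and 30.0 per 10000 for eCLIP 1 and 2 and 126 and 158 for input 1 and 2. With only peaks of at least 5 reads, the shares of peaks were 37.1 and 51.5 per 10000 for eCLIP 1 and 2 and 151 and 316 for the inputs, and with p-values of at most 0.001 they were 57.7 and 39.3 against 129 and 292. The part of list length in the lower eCLIP share was not tested further.

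**Figure D1:**
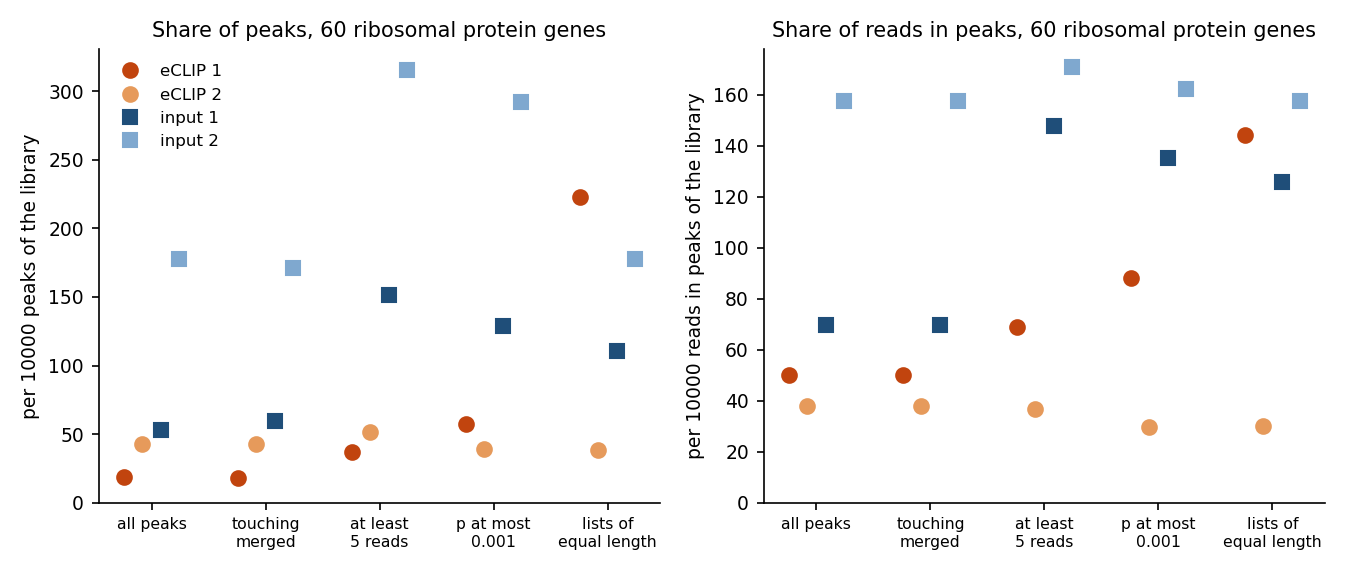
Share of peaks (left) and of reads in peaks (right) that fell in the 60 ribosomal protein genes, per 10000 of the library, with 1 point per library, under 5 ways of choosing peaks. Both eCLIP libraries (circles) lie below both inputs (squares) in the first 4, while at equal list length eCLIP 1 has the highest share of peaks at 223 and eCLIP 2 the lowest at 38.4.

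The lower share was seen on both strands. The 33 genes on the plus strand held 21.0 and 39.1 per 10000 plus-strand peaks in eCLIP 1 and 2, against 62.2 and 203 in input 1 and 2. The 27 genes on the minus strand held 16.6 and 46.0 per 10000 minus-strand peaks of eCLIP 1 and 2 and 46.9 and 152 per 10000 of input 1 and 2. On the minus strand eCLIP 2 and input 1 thus nearly met. Many minus-strand peaks of input 1 touch each other, and after touching peaks were merged into regions, the 173 minus-strand peaks in these genes became 122 regions. The minus-strand shares were then 16.0 and 46.7 per 10000 regions in eCLIP and 54.8 and 147 in the inputs.

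Within eCLIP 1, the peaks of the ribosomal protein genes held more reads on average than those of other genes. Their mean was 17.0 reads per peak against 6.40 in all other genes, with medians of 11 and 4. Only 4.75% of them had the minimum of 3 reads, against 32.1% in other genes, and 71.2% had a p-value of at most 0.001, against 23.2%. In eCLIP 2 the means were nearer each other, at 4.90 and 5.48 reads, and 20.2% against 21.9% of peaks had a p-value of at most 0.001. Input 1 gave means of 5.18 and 3.95 reads and 30.4% against 12.5% of peaks at that p-value, and input 2 gave 8.08 and 9.13 reads and 47.2% against 28.4%. The peaks were narrow in each library, with median widths of 27 bases in eCLIP 1, 28 in eCLIP 2, 29 in input 1 and 37 in input 2. The reads of these peaks in eCLIP 1 stand beside the genes' high share in its list of equal length.

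These short genes were densely covered. A gene's span was bounded by its outermost peaks in any of the 4 libraries, and the median span was 4807.5 bases (1908 to 72931) against 42333.5 bases for all genes tested. Over a summed span of 454808 bases, peaks covered 6.18% in eCLIP 1, 1.18% in eCLIP 2, 2.20% in input 1 and 1.83% in input 2. The same shares over the other genes with at least 10 peaks were 1.80%, 0.163%, 0.192% and 0.0377%. The genes thus had 1.99 peaks per kb of span in eCLIP 1 against 0.608 in other genes, and 0.438 against 0.0115 in input 2. Per base of span they were therefore denser in peaks than other genes in every library, the eCLIP libraries included.

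Peaks were present in 60 of the genes in eCLIP 1, 50 in eCLIP 2, 58 in input 1 and 50 in input 2, and 44 genes had peaks in all 4 libraries. Genes without a peak in eCLIP 2 were ENSG00000147604, ENSG00000148303, ENSG00000105640, ENSG00000122026, ENSG00000145425, ENSG00000171863, ENSG00000170889, ENSG00000164587, ENSG00000115268 and ENSG00000118181. Those without a peak in input 2 were ENSG00000089009, ENSG00000163682, ENSG00000188846, ENSG00000116251, ENSG00000114391, ENSG00000145425, ENSG00000171863, ENSG00000170889, ENSG00000008988 and ENSG00000118181. ENSG00000170889 (chr19:54704731-54710169, plus strand, 6 peaks with 43 reads) and ENSG00000118181 (chr11:118886453-118889053, minus strand, 4 peaks with 42 reads) had peaks in eCLIP 1 alone. A missing peak in a short list does not show that the RNA was absent. The median number of peaks per gene was 13 in eCLIP 1, 2 in eCLIP 2, 4.5 in input 1 and 3 in input 2.

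The reads were spread over many of the genes. The 10 genes with the highest mean share of reads over the 4 libraries took 32.8% of the genes' reads in eCLIP 1, 43.1% in eCLIP 2, 36.1% in input 1 and 39.1% in input 2. Shares were largest in input 2, which weighs most in this mean, so the order favours genes with high input shares and their direction is no result. In the order eCLIP 1, eCLIP 2, input 1, input 2, the gene at its head, ENSG00000140988 (chr16:2012164-2014821, minus strand), had 288, 16, 60 and 113 reads, or 0.936, 0.697, 2.41 and 11.1 per 10000. Both of its eCLIP shares lay below both input shares, and by reads it ranked 1 of the 60 genes in input 2 but 19 in eCLIP 1. ENSG00000125691 (chr17:37004292-37009981, minus strand) had 435, 30, 84 and 88 reads, or 1.41, 1.31, 3.37 and 8.62 per 10000, in the same order of groups. ENSG00000142541 (chr19:49990868-49994800, plus strand) had 541, 39, 90 and 75 reads, or 1.76, 1.70, 3.61 and 7.35 per 10000. Its eCLIP libraries also lay below its inputs, and all 3 genes had their highest share in input 2.

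Further down that order, ENSG00000145592 had 1.48, 2.00, 2.93 and 5.09 reads per 10000. ENSG00000100316 had 1.63, 1.05, 2.29 and 5.58 per 10000. ENSG00000144713 had 0.689, 0.305, 2.09 and 7.44 per 10000, and ENSG00000149273 had 2.13, 1.31, 2.93 and 3.92. In each of these 4 genes both eCLIP libraries lay below both inputs. The groups overlapped in the remaining 3 of the 10. ENSG00000142937 had 899, 51, 69 and 58 reads (2.92, 2.22, 2.77 and 5.68 per 10000), the most reads of any of the 60 genes in eCLIP 1. ENSG00000124614 had 493, 96, 29 and 32 reads (1.60, 4.18, 1.16 and 3.13 per 10000), with its highest share in eCLIP 2. ENSG00000138326 had 576, 37, 41 and 38 reads (1.87, 1.61, 1.64 and 3.72 per 10000), where eCLIP 2 and input 1 were nearly equal.

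Of the 60 genes, 56 had at least 10 peaks over the 4 libraries and entered a fit over 8914 genes. The other four, ENSG00000105640, ENSG00000162244, ENSG00000170889 and ENSG00000118181, were not tested. No gene passed limma's test of eCLIP against input at an adjusted p of 0.05, neither among the ribosomal protein genes nor among all 8914, by peaks or by reads. The share called over all genes was thus 0% in each direction. The lowest Benjamini-Hochberg adjusted p from limma among the ribosomal protein genes was 0.995 by peaks and 0.935 by reads. At an unadjusted p under 0.05, 0 of the 56 were higher and 7 were lower in eCLIP by peaks, beside 1.26% and 0.696% of all genes. By reads 1 was higher and 6 were lower, beside 2.71% and 1.08% of all genes.

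The differences in the ribosomal protein genes nevertheless lay mostly on one side. On the scale of log2(share per 10000 + 0.5), the median difference of eCLIP minus input was -1.23 by peaks, against 0.16 over all genes tested. Of the 56 genes 49 were negative, beside 40.3% of all genes. By reads the median was -0.99 against 0.16, and 43 of 56 were negative, beside 38.8% of all genes. Without input 2 the medians were -0.48 by peaks and -0.52 by reads, against -0.065 and -0.16 over all genes. Without input 1 they were -1.92 and -1.28, against 0.44 and 0.47. Both eCLIP shares lay below both input shares by peaks in 30 of the 56 genes, beside 10.2% of all genes tested, and above them in 3, beside 21.1%. By reads they lay below in 29 genes, beside 9.08% of all genes, and above in 5, beside 25.0%. By both measures 26 genes were below, and 33 were by either. In lists of equal length 29 of the genes could be tested, and the eCLIP shares lay below in 2 by peaks, beside 7.51% of all genes, and in 8 by reads, beside 11.8%.

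**Figure D2:**
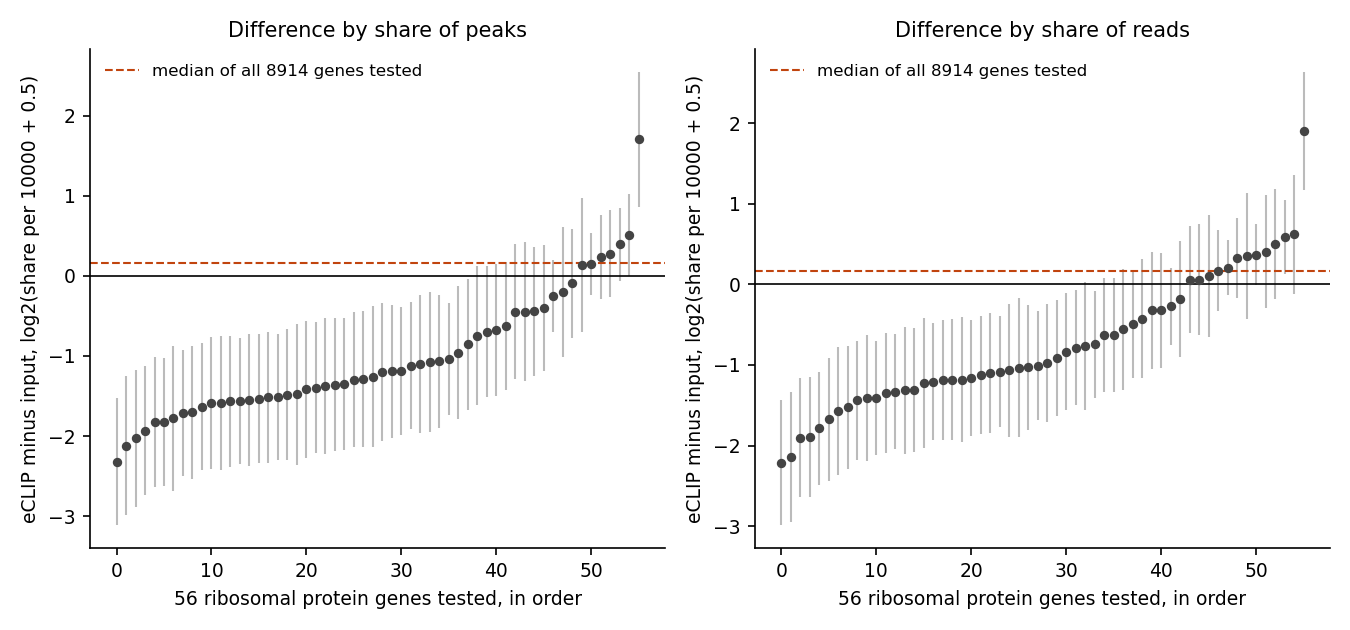
Difference of eCLIP minus input in log2(share per 10000 + 0.5) for the 56 ribosomal protein genes tested, by peaks (left) and by reads (right), sorted, with bars of 1 SE from limma; the dashed line is the median of all 8914 genes tested. By peaks 49 of 56 lie below 0, beside 40.3% of all genes, and by reads 43 of 56, beside 38.8%. The median of all genes is 0.16 in both.

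The 6 genes with the lowest differences by peaks had lower shares in both eCLIP libraries than in either input. ENSG00000089157 (chr12:120634522-120638913, minus strand) had 15, 1, 13 and 6 peaks in eCLIP 1, eCLIP 2, input 1 and input 2, or 0.313, 0.239, 2.06 and 5.36 per 10000. Its difference was -2.32 (SE 0.79). ENSG00000142534 (chr19:49999693-50002931, plus strand) had 6, 1, 5 and 7 peaks, or 0.125, 0.239, 0.793 and 6.25 per 10000, a difference of -2.12 (SE 0.87). The eCLIP libraries of both genes lay below their inputs. ENSG00000164587 (chr5:149823853-149829303, minus strand) had 13, 0, 5 and 5 peaks, a difference of -2.03 (SE 0.86).

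ENSG00000142541 followed with 10, 4, 13 and 6 peaks, or 0.209, 0.955, 2.06 and 5.36 per 10000, a difference of -1.93 (SE 0.80). ENSG00000137818 had 10, 1, 7 and 4 peaks and a difference of -1.82 (SE 0.81), and ENSG00000122406 had 24, 2, 10 and 6 peaks and a difference of -1.82 (SE 0.80). In all 6 genes input 2 had the highest share, and both eCLIP shares were below both inputs. By reads the lowest differences were in ENSG00000144713 at -2.21 (SE 0.77) and ENSG00000140988 at -2.15 (SE 0.81). None of these passed limma's adjusted test with all 4 libraries, whereas without input 1 limma called ENSG00000144713, ENSG00000140988 and ENSG00000164587 lower by reads (adjusted p = 0.0108, 0.0118 and 0.0303), among 6 of the 56 genes, beside 0.684% of all genes.

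At the other end stood ENSG00000116251 (chr1:6245388-6265097, minus strand). It had 38, 12, 2 and 0 peaks, or 0.793, 2.86, 0.317 and 0 per 10000, and 367, 70, 9 and 0 reads. Both eCLIP shares lay above both inputs, and input 2 listed no peak there. The differences were 1.71 by peaks (SE 0.84) and 1.90 by reads (SE 0.73), and limma's adjusted p was 0.995 by peaks. Its span of 19710 bases makes it 1 of the 10 genes longer than 10000 bases.

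The remaining genes at that end had few peaks in eCLIP 2 and in the inputs. ENSG00000163682 had 9, 2, 1 and 0 peaks and a difference of 0.51 (SE 0.51). ENSG00000188846 had 13, 1, 1 and 0 peaks and a difference of 0.40 (SE 0.46). Together with ENSG00000116251 these were the only genes of the 56 with both eCLIP shares above both inputs by peaks. ENSG00000114391 had 15, 1, 2 and 0 peaks (0.28, SE 0.54), ENSG00000008988 had 13, 1, 2 and 0 (0.24, SE 0.53) and ENSG00000171863 had 15, 0, 1 and 0 (0.15, SE 0.38). The last 3 differences turned negative when input 2 was left out, at -0.077, -0.11 and -0.05. By reads, ENSG00000174748 (204, 16, 7 and 4 reads) also had both eCLIP shares above both inputs. ENSG00000110700 (288, 18, 8 and 8 reads) was counted there too, but its shares of 0.936, 0.784, 0.321 and 0.784 per 10000 put eCLIP 2 and input 2 level.

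Libraries of the same number were compared as well, since eCLIP 1 and input 1, and eCLIP 2 and input 2, deviated together from their group means (correlation 0.397 over 8914 genes, as a description). In both groups library 2 has the shorter list, and the part of list length in this correlation was not tested. The eCLIP share was lower in both same-numbered comparisons in 43 of the 56 genes, beside 15.6% of all genes tested, and higher in both in 3, beside 31.9%. Fisher's exact test on the peaks of 2 libraries compares those libraries and not the conditions. Between eCLIP 1 and input 1 it called 13 of the 56 genes lower, beside 4.68% of all genes, and 0 higher, beside 1.87%. Between eCLIP 2 and input 2 it called 0 lower and 0 higher, beside 0.0673% and 0.0449% of all genes.

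The 13 genes had 10 to 36 peaks in eCLIP 1 and 7 to 16 in input 1, while the list of eCLIP 1 is much longer. ENSG00000137154 (chr9:19376270-19380234, minus strand) had 11 peaks in eCLIP 1 and 14 in input 1 (adjusted p = 2.19e-05, Fisher's exact test), or 0.229 and 2.22 per 10000. ENSG00000174444 (chr15:66791766-66797184, minus strand) had 16 and 16 peaks (adjusted p = 2.19e-05, Fisher's exact test), or 0.334 and 2.54 per 10000. ENSG00000142541 had 10 and 13 peaks (adjusted p = 5.04e-05, Fisher's exact test), and ENSG00000089157 had 15 and 13 (adjusted p = 0.000489, Fisher's exact test). The others were ENSG00000063177, ENSG00000100316, ENSG00000105193, ENSG00000125691, ENSG00000137818, ENSG00000144713, ENSG00000145592, ENSG00000147604 and ENSG00000149273. With lists of equal length 29 of the genes could be tested, and 0 were called lower, beside 3.86% of all genes. Called higher were 2, beside 21.1% of all genes, namely ENSG00000138326 (15 peaks in eCLIP 1 and 2 in input 1, adjusted p = 0.0135, Fisher's exact test) and ENSG00000130255 (10 and 1 peaks, adjusted p = 0.0473, Fisher's exact test).

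The place of the peaks along the genes was compared in 5 equal parts of each span, read in the direction of transcription. The 3 middle parts held 49.7% of the peaks in eCLIP 1 (95% interval 46.5 to 53.0), 64.0% in eCLIP 2 (56.8 to 70.7), 49.1% in input 1 (43.8 to 54.4) and 34.7% in input 2 (28.4 to 41.5). The highest value was that of eCLIP 2 and the lowest that of input 2, while the intervals of eCLIP 1 and input 1 overlapped almost entirely. The last part, toward the 3′ end, held 20.9% in eCLIP 1 (18.4 to 23.7), 14.6% in eCLIP 2 (10.2 to 20.5), 23.8% in input 1 (19.6 to 28.6) and 34.2% in input 2 (27.9 to 41.0). The first part held 29.4%, 21.3%, 27.1% and 31.2% in the same order, with the groups overlapping. The difference in the middle parts, 15.0 percentage points higher in eCLIP, was 7.83 without eCLIP 2 and 7.78 without input 2. With peaks weighted by reads the middle parts held 42.2% and 66.4% in eCLIP 1 and 2, against 45.2% and 28.8% in the inputs. Without the genes whose span exceeds 10 kb, an alternative chosen after seeing the data, they held 50.5% and 65.2% against 51.5% and 37.3%. The groups overlapped in both settings, with eCLIP 1 below input 1.

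In other genes the 3 middle parts held 54.0% in eCLIP 1, 54.6% in eCLIP 2, 52.7% in input 1 and 48.9% in input 2, a narrower range than in the ribosomal protein genes. There the last part held 17.5% in eCLIP 1, 16.7% in eCLIP 2, 23.2% in input 1 and 24.2% in input 2. Within 300 bases of the 3′ end of the span lay 9.83% and 8.43% of the ribosomal protein gene peaks in eCLIP 1 and 2, against 11.9% in input 1 and 22.6% in input 2. The corresponding shares at the 5′ end were 10.9%, 10.7%, 8.93% and 11.6%. In the list of equal length the peaks of eCLIP 1 lay nearer the 5′ end, with 46.0% in the first part and 32.0% in the 3 middle parts. The middle parts then held 69.8% in eCLIP 2, 45.2% in input 1 and 34.7% in input 2, so the groups overlapped. Since the spans are those of the peaks themselves, their ends are not annotated ends of transcripts.

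**Figure D3:**
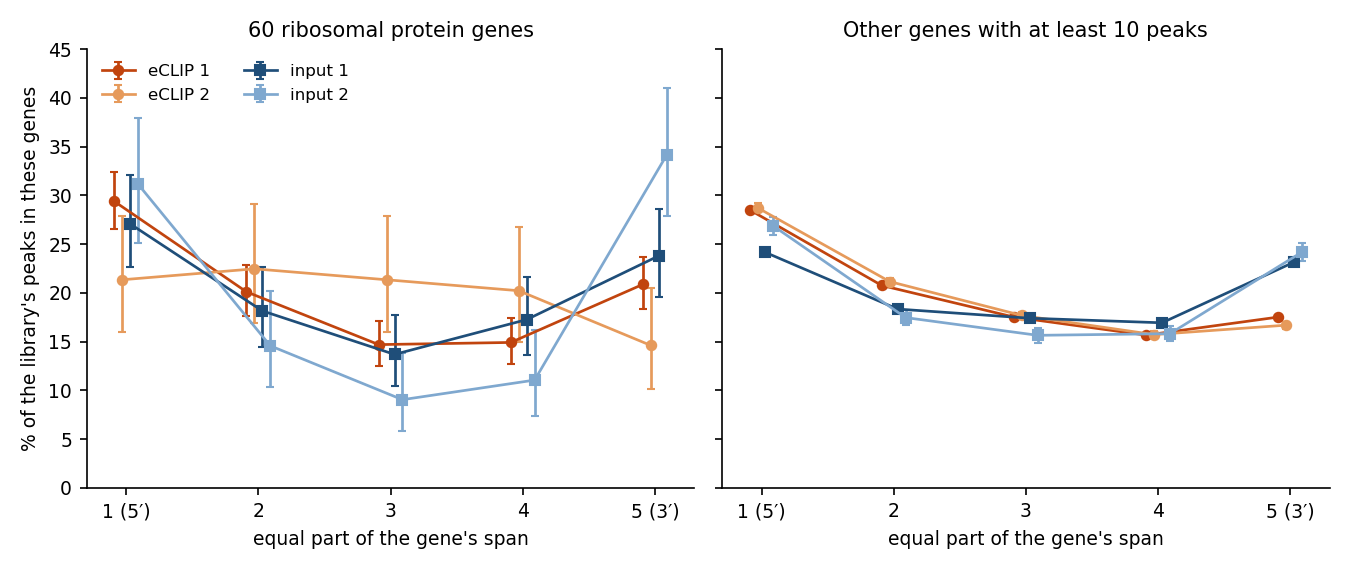
Share of each library's peaks in 5 equal parts of the gene's span, from the 5′ to the 3′ end, in the 60 ribosomal protein genes (left) and in other genes with at least 10 peaks (right), with Wilson 95% intervals. In the ribosomal protein genes the last part holds 34.2% of the peaks of input 2 and 14.6% of those of eCLIP 2, while eCLIP 1 and input 1 lie between.

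A larger share of the peaks in the ribosomal protein genes than in other genes recurred between libraries, given here as shares with no test. An overlap was a shared base on the same strand with a peak listed under any gene. Of the eCLIP 2 peaks, 53.9% (46.6 to 61.1) overlapped a peak of eCLIP 1, against 33.0% in other genes. The same eCLIP 2 peaks overlapped input 1 in 26.4% and input 2 in 25.8%, against 3.46% and 5.12% in other genes. Of the input 2 peaks, 75.9% (69.5 to 81.3) overlapped eCLIP 1 and 43.7% (37.0 to 50.7) overlapped input 1, against 24.2% and 17.9% in other genes. Overlap of eCLIP peaks with inputs was thus several times as frequent as in other genes. Of the eCLIP 1 peaks, 11.6% overlapped eCLIP 2, 20.1% input 1 and 18.2% input 2, against 2.94%, 1.49% and 0.610% in other genes. Of the input 2 peaks, 23.1% overlapped eCLIP 2, against 19.0% in other genes. This last difference turned with lists of equal length (8.04% against 12.9%), with p-values of at most 0.001 (9.57% against 20.1%), with at least 5 reads per peak (16.7% against 21.7%) and with an overlap of at least 50% of the peak (12.6% against 14.5%). For eCLIP 1 in eCLIP 2 the direction also turned with lists of equal length, at 8.40% against 20.4%. The denser coverage of these short genes moves with these overlaps, and its part in them was not tested.

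**Figure D4:**
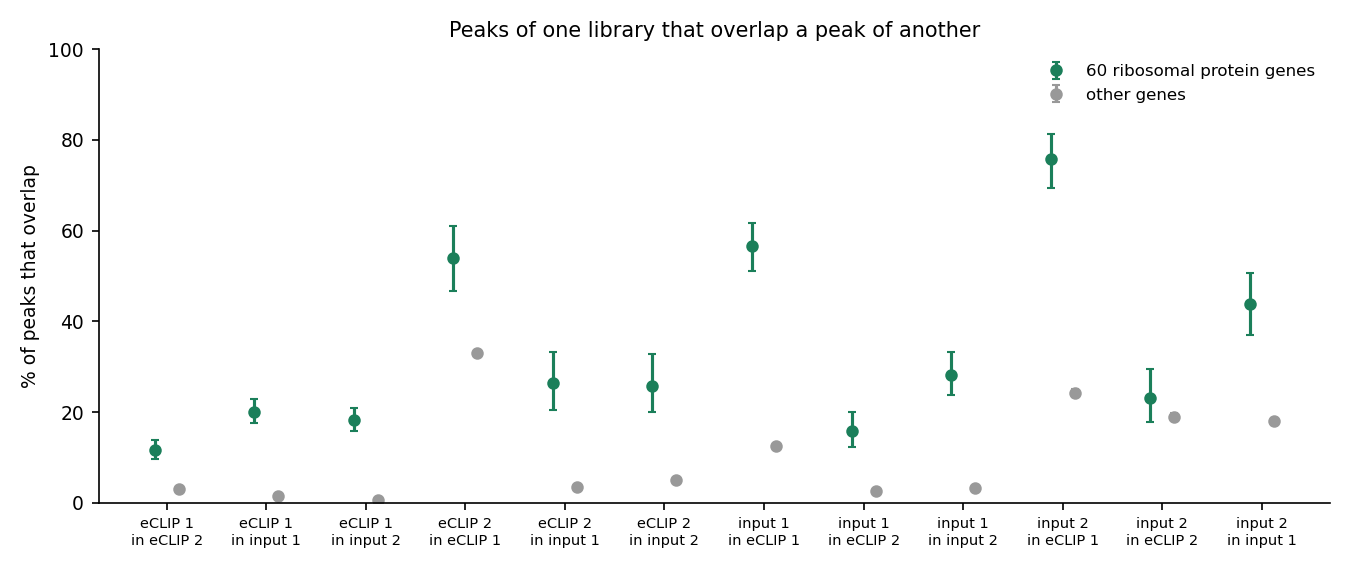
Share of the peaks of a library that overlap a peak of another library by at least 1 base on the same strand, for the 60 ribosomal protein genes and for other genes, with Wilson 95% intervals. With all peaks and this rule the ribosomal protein genes lie higher in each pair, though input 2 in eCLIP 2 and eCLIP 1 in eCLIP 2 turn with lists of equal length; the values are 53.9% against 33.0% for eCLIP 2 in eCLIP 1 and at 26.4% against 3.46% for eCLIP 2 in input 1.

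Of the 905 eCLIP 1 peaks, 105 in 39 genes were found in eCLIP 2. Of these, 28 in 18 genes were also found in both inputs, 3.09% of the eCLIP 1 peaks against 0.129% in other genes. Peaks that eCLIP 1 shared with eCLIP 2 and with no input, called eCLIP-only here, numbered 42 in 24 genes, 4.64% against 2.51%. That order turned with lists of equal length (2.00% against 12.3%) and with p-values of at most 0.001 (1.71% against 2.23%). In the opposite direction, 12 peaks of input 1 in 12 genes were found in both inputs and in neither eCLIP library, 3.57% against 1.83%. This order turned with at least 5 reads per peak (3.88% against 5.33%) and when peaks within 50 bases counted as overlapping (1.49% against 1.77%). The 42 eCLIP-only peaks lay in the 3 middle parts of the span in 66.7% of cases (51.6 to 79.0), and the 28 peaks found in all libraries in 42.9% (26.5 to 60.9). These intervals overlap, and several eCLIP-only peaks lie in the same gene, so that the peaks are not independent. The median strength of the eCLIP-only peaks in eCLIP 1 was 18 reads against 59.5 reads for the peaks found everywhere. Being listed in every library itself favours strong peaks, so this difference is no result.

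The strongest peak of these genes lay in ENSG00000142541 at chr19:49994459-49994508 (plus strand), 91.9% of the way along the span. It held 130 reads in eCLIP 1, and the highest overlapping peak listed under the same gene held 17 reads in eCLIP 2, 26 in input 1 and 37 in input 2. It was thus found in every library. Values of other sites are given in the same way, as the reads of single peaks. Sites were not assigned to exons or introns. Reads of an mRNA and of a small nucleolar RNA hosted in an intron were thus not told apart. In ENSG00000174444, the peak at chr15:66795174-66795252 (minus strand) held 102 reads in eCLIP 1, and the highest overlapping peaks 5, 12 and 7 reads in eCLIP 2, input 1 and input 2. In ENSG00000140988, the peak at chr16:2012349-2012415 (minus strand) held 37 reads in eCLIP 1, and the highest overlapping peaks 5, 22 and 38. The inputs had more reads than eCLIP 2 at each of these 3 sites.

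Other strong input peaks had little or no counterpart in eCLIP 2. In ENSG00000144713, a peak of input 1 at chr3:12881818-12881891 (minus strand) held 22 reads, and the highest overlapping peak held 26 reads in eCLIP 1 and 37 in input 2. In eCLIP 2 none was listed there under this gene. In ENSG00000166441, the peak at chr11:8707059-8707115 (plus strand) was found in the inputs alone, with 12 reads in input 1 and 15 in input 2. Of the 12 sites found in both inputs only, this one had the most reads in input 1.

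The eCLIP-only sites were most frequent in ENSG00000124614 (chr6:34385668-34393846, minus strand), with 7, and in ENSG00000138326 (chr10:79793621-79813133, plus strand), with 5. Next were ENSG00000100316, ENSG00000161016, ENSG00000174748, ENSG00000116251, ENSG00000156482, ENSG00000145592, ENSG00000140988 and ENSG00000142937, with 2 each. Another 14 genes had 1, and 36 had 0. In ENSG00000124614 the peak at chr6:34391886-34391924 held 49 reads in eCLIP 1 and the highest overlapping peak of eCLIP 2 held 11. A peak of eCLIP 2 at chr6:34390363-34390418 held 21 reads, with 13 in the overlapping peak of eCLIP 1, and no overlapping peak in either input. This gene also had 1 site found in both inputs only, at chr6:34390306-34390353, within 50 bases of that eCLIP 2 peak. The site held 5 reads in input 1, and the highest overlapping peak of input 2 held 3.

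The peaks of ENSG00000124614 are partly shared with another entry of the annotation. Of its 31, 12, 7 and 7 peaks, 19, 11, 7 and 7 were also listed under ENSG00000270800, so their reads cannot be assigned to one gene. Of its 7 eCLIP-only sites, 6 were such repeats, and without them it keeps 1 and ENSG00000138326 has the most. In ENSG00000138326 the eCLIP-only sites lay close together, between 18.7% and 28.1% of the span, and held 14 to 38 reads in eCLIP 1 and 3 to 7 in eCLIP 2. Another site of both eCLIP libraries lay within this stretch, at chr10:79798578-79798593. It overlapped a peak of 3 reads in input 2. In ENSG00000142937, 2 adjacent peaks at the 5′ end of the span, chr1:45241247-45241266 and chr1:45241267-45241273 (plus strand), held 72 and 73 reads in eCLIP 1 and overlapped 4 reads in eCLIP 2. They touch each other and are 1 region after merging. In ENSG00000116251 the sites at chr1:6251821-6251851 and chr1:6254914-6254943 (minus strand) held 9 and 6 reads in eCLIP 1 and 5 and 6 in eCLIP 2.

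The strongest eCLIP 2 peaks were not always matched by a peak that eCLIP 1 listed under the same gene. In ENSG00000198242 the peak at chr17:27049456-27049500 (plus strand) held 30 reads in eCLIP 2, the most of any peak of these genes there. It overlapped no peak listed under this gene in any other library. In ENSG00000134419 the peak at chr16:18798217-18798286 (minus strand) held 21 reads in eCLIP 2. The highest overlapping peak under this gene held 3 reads in input 2, and eCLIP 1 and input 1 listed none. The second eCLIP library thus carried strong peaks that the longer list of the first did not hold under the same genes. Peaks listed under other genes were not counted in these values.

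**Figure D5:**
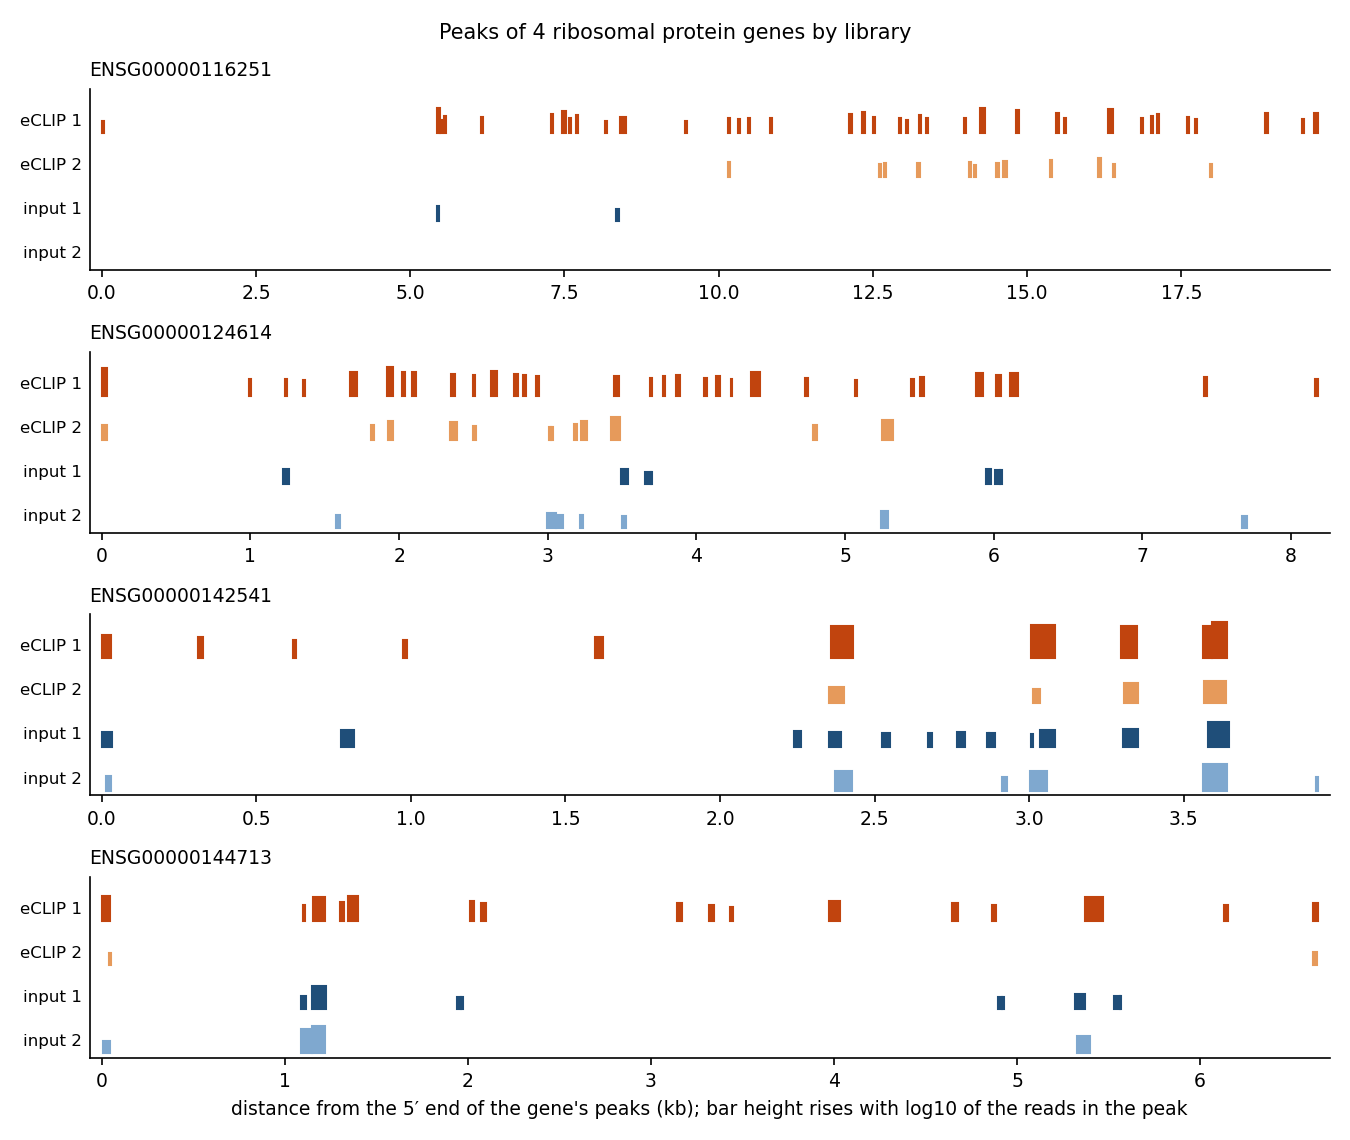
Peaks of 4 ribosomal protein genes in each library, by distance in kb from the 5′ end of the gene's peaks; bar height rises with log10 of the reads in the peak. ENSG00000116251 has 38, 12, 2 and 0 peaks in the libraries from top to bottom, ENSG00000124614 has 31, 12, 7 and 7, and the peaks of ENSG00000142541 near its 3′ end and of ENSG00000144713 appear in both inputs.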

How the data were processed

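Per the submitters' processing notes, cutadapt, STAR and SAMtools were used with the hg19 build (versions, peak caller and annotation: not given in the sources used here). For each library, the authors deposited 1 peak list with a gene identifier, a p-value for each peak and a score that follows from that p-value. Deposited peak names end in a whole number of at least 3, taken here for the peak's reads. Library totals were not used here, so depth is unknown, and no count model was run. Intervals cover counting error only.

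Shares were computed per 10000 peaks or reads in peaks. Genes with at least 10 peaks were tested with limma 3.58.1 in R 4.3.3 (two-sided, trend, Benjamini-Hochberg) on log2(share per 10000 + 0.5) over all 4 libraries, and same-numbered libraries with Fisher's exact test (two-sided, SciPy 1.17.1, Python 3.11.15, pandas 2.3.3), adjusted over all 8914 genes. Figures used matplotlib 3.10.9. The scripts were tested on simulated data.

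The genes and lists were chosen with earlier results of these data known. Named genes are the 10 with the highest mean read share, the 6 highest and 6 lowest differences by peaks, every called gene, those with most eCLIP-only sites and those without a peak in a library; ENSG00000174748, ENSG00000110700 and the single sites were chosen after their values were seen. Same-numbered libraries deviated together (correlation 0.397 over all genes, 0.248 over the ribosomal protein genes), a hint from the data and not the design. The part of list length in it was not tested. Other genes of translation, exon and intron classes and sequences were not analysed here.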

Additional observations from a re-analysis of the deposited data

How the results depend on the processing

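Of 226 comparisons of a main result with an alternative, 187 stayed within a set margin of the main result. The margin was the SD within groups for shares, the median SE for limma's medians and a fixed ratio for counts of genes. Counts of 0 that stayed at 0 are among the 187. Of the others, 18 moved beyond the margin without reversing and 3 reversed, while 15 were weaker and 3 stronger. With lists of equal length the log2 difference in the share of peaks was -0.60, both eCLIP shares lay below the inputs in 2 of 29 genes by peaks and 8 by reads (all genes 7.51% and 11.8%) and above in 1 and 2 (32.8% and 33.8%), Fisher's exact test between libraries 1 called 0 lower and 2 higher (3.86% and 21.1%), overlaps were 46.5% (eCLIP 2 in eCLIP 1), 37.2% (eCLIP 2 in input 2), 46.7% (input 2 in eCLIP 1) and 26.6% (input 2 in input 1), and 5 eCLIP-only sites were left (2.00% of peaks against 12.3% in other genes). With at least 5 reads per peak, 1 gene (peaks) and 3 genes (reads) of 49 lay above (all genes 30.6% and 35.0%), Fisher's test called 7 lower (1.33%), the overlaps were 63.1% (eCLIP 2 in eCLIP 1) and 85.1% (input 2 in eCLIP 1), and 20 eCLIP-only (2.48% against 1.86%) and 5 input-only sites (3.88% against 5.33%) were left. With p-values of at most 0.001, Fisher's test called 0 lower (all genes 0.960%), the overlaps were 61.1%, 19.4% (eCLIP 2 in input 1), 87.2% and 34.0% (input 2 in input 1), and 11 eCLIP-only (1.71% against 2.23%) and 6 input-only sites (5.88% against 5.60%) were left. With an overlap of at least 50% of the peak, the overlaps were 19.1% (eCLIP 2 in input 2), 56.8% and 31.2%, with 19 input-only sites (5.65% against 1.86%); within 50 bases they were 63.5%, 82.4% and 52.8%, with 5 input-only sites (1.49% against 1.77%). The difference in the share of peaks in the first part of the span, -3.75 percentage points, was 0.60 with lists of equal length, -9.35 with p-values of at most 0.001, 0.27 without eCLIP 2 (range -7.77 to 0.27 when 1 library was left out) and 0.52 without the 10 genes whose span exceeds 10 kb, an alternative chosen after seeing the data. The causes were not tested.

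Without input 1, limma called 6 of the genes lower by reads (ENSG00000115268, ENSG00000140988 at -3.14, ENSG00000144713 at -3.02, ENSG00000164587, ENSG00000166441 and ENSG00000197958), beside 61 of 8914 genes, and 0 without any other library. A lone sample is then assumed to vary like the other group. With the replicate block, limma called 0 of the genes by peaks and 0 by reads, with lowest adjusted p-values of 0.112 and 0.174. Of all 8914 genes it called 3 higher and 1 lower by peaks, and 4 higher and 7 lower by reads. At an unadjusted p under 0.05 that limma fit had 25 of the 56 lower by peaks, beside 205 of all 8914 genes. By peaks, differences changed sign without input 2 in ENSG00000114391 (-0.077; range with 1 library left out -0.077 to 0.63), ENSG00000008988 (-0.11; -0.11 to 0.59) and ENSG00000171863 (-0.05), without eCLIP 1 in ENSG00000171863 (-0.20; -0.20 to 0.50), and with at least 5 reads per peak in ENSG00000008988 (-0.40). Genes with few peaks in the shorter lists limit these values.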
